A study of Mus musculus with 7 samples.

Results

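Cells of the mouse pharyngeal arches that carried transcripts of both Gsc and Hand2 were described at embryonic day 10.5. A cell was taken when it had at least 1000 detected genes, at most 10% of its unique molecular identifiers (UMIs, each standing for 1 captured transcript) from mitochondrial genes, and at least 1 UMI each of Gsc and Hand2. It also had 0 UMIs of Emx2, Foxf1, Sox10, Hoxa3, Hoxb3 and Hoxd3, called the barring genes here. Of 33369 cells in 4 libraries that passed the filters on genes and mitochondrial UMIs, 1630 met this gate and are called Gsc Hand2 cells. Control replicate 1 gave 389 of them, control replicate 2 gave 1084, Tbx1 null replicate 1 gave 120 and Tbx1 null replicate 2 gave 37, and every run of values below keeps that order. They were set against 15921 other mesenchymal cells, which are cells of the same libraries with at least 2 UMIs of Twist1, Prrx1 and Prrx2 together that did not meet the gate. Of the 1630 cells, 24 lay below this mesenchymal minimum, and they stay in the sums but not in the shares of mesenchymal cells.

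In the arches, endothelin-1 from the epithelium acts on its receptor Ednra on neural crest cells, and this signal is needed for Dlx5 and Dlx6 in the ventral arch. These homeodomain factors act upstream of Hand2, a basic helix-loop-helix factor of the ventral arch. Gsc is a homeodomain factor needed for parts of the jaw and ear skeleton. Hoxa2 is expressed in crest of the second arch and behind it, and the group 3 Hox genes in crest of the third arch and behind it.

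The embryos were mice of a mixed Swiss-Webster background in which Wnt1-Cre, active in the dorsal neural tube, switched on an EGFP reporter in neural crest and dorsal neural cells. EGFP positive, DAPI negative cells were sorted from dissociated tissue, and each library is a pool of embryos. The 2 control libraries have the genotype Wnt1-Cre/+;ROSA-EGFPf/+ and came from arches 2 to 6 with the heart. The 2 libraries titled Tbx1 null came from tissue below arch 1 with the heart, and their genotype is labelled Wnt1-Cre/+;Tbx1+/-;ROSA-EGFPf/+, which does not match the title. The list of libraries in the study gives Tbx1-/-, and they are called Tbx1 null here. That list also gives neural tube in the dissections of both genotypes. Tbx1 is a T-box factor of arch mesoderm and epithelium, and the comparison asks how neural crest differs when this gene of its neighbours is lost. The libraries held 902, 798, 570 and 428 Tbx1 UMIs over all cells, and counts of transcript ends do not check whether the allele was deleted.

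Total counts ranged from 146254671 to 197398510 UMIs per library. Median depths were 22624, 16157, 26178 and 22301 UMIs in Gsc Hand2 cells and 23211, 17139.5, 25039 and 22590 in other mesenchymal cells. Pairs of libraries shared 17 to 39 barcodes, and no pair shared one between Gsc Hand2 cells. Cells with the highest doublet scores made up 3.60%, 7.57%, 2.50% and 2.70% of Gsc Hand2 cells and 12.9%, 14.2%, 12.6% and 10.8% of other mesenchymal cells, and were kept. Levels are given as CPM, the UMIs of a gene in a sum of cells divided by all UMIs of that sum and scaled to a common total. The summed level of 10 neural markers was 23.1, 21.3, 32.9 and 150.4 CPM in Gsc Hand2 cells against 323, 132, 450 and 1356 in other mesenchymal cells. Every neural marker had UMIs in Gsc Hand2 cells of each library except 1 marker in Tbx1 null replicate 1. Among Gsc Hand2 cells, Tbx1 null replicate 2, with the fewest cells, was highest in this sum and in those of glial, endothelial, red cell, epithelial, muscle and outflow tract markers. The summed level of 9 dissociation response genes was 215, 198, 203 and 355 CPM. Of 5 sex-linked genes, the 4 on the Y chromosome had 0 UMIs in Tbx1 null replicate 2 and were found in the other libraries, and Xist stood at 197, 353, 470.1 and 727 CPM, with both null libraries above both controls. The part of these in the results was not tested.

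The promoters of Gsc and Hand2 are shown because both genes define the cells and because RefSeq places the start of the long noncoding RNA gene Hand2os1 within the Hand2 window. They are RefSeq windows of 300 bases on GRCm38.p6, running from 250 bases before the start to 50 after it, 5′ to 3′ on the strand of the gene. Capitals mark TAATTA, a core of many homeodomain sites, TAATCC, a core preferred by Gsc, and CATCTG, an E-box for helix-loop-helix factors, each searched on both strands. The Gsc window is chr12:104473187-104473486 on the minus strand and the Hand2 window is chr8:57320733-57321032 on the plus strand.
Gsc: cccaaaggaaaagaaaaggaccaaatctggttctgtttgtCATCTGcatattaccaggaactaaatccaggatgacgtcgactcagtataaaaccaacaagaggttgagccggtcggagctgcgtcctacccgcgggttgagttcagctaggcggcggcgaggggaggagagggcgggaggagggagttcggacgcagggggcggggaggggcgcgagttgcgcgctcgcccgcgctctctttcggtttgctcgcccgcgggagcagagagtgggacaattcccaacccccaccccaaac
Hand2: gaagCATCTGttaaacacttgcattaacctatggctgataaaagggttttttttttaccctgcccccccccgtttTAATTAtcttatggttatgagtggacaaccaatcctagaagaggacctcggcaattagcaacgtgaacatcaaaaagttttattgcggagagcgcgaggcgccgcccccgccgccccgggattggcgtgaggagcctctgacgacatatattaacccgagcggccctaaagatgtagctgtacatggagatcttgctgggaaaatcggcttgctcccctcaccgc
CATCTG occurs in both windows and in 17.2% of all 32851 promoter windows. TAATTA occurs in the Hand2 window and in 5.29% of all windows, and TAATCC occurs in neither and in 7.06% of all windows. The windows of Hand2os1, which overlaps that of Hand2 by 223 bases, and of Cited1 held none of the 3. These are matches of letters only. In the GENCODE annotation of GRCm38, Gsc lies at chr12:104471209-104473330, Hand2 at chr8:57320983-57324633 and Hand2os1 on the opposite strand at chr8:57281117-57324233, sharing 461 exon bases with Hand2. GENCODE therefore starts Hand2os1 outside the Hand2 window, and the annotations differ on this start.

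The cells were selected on Gsc, Hand2 and the barring genes, so the levels of these genes are a description. Gsc stood at 295, 276, 93.3 and 184 CPM in Gsc Hand2 cells and at 39.0, 32.7, 5.44 and 12.5 in other mesenchymal cells. Hand2 stood at 206, 222, 227 and 272 against 73.3, 85.0, 63.4 and 60.8. Hand2 of the null libraries thus lay above the control libraries within the gate, and Gsc lay below them. Single cells held a median of 4 Gsc UMIs with a highest value of 24, and a median of 3 Hand2 UMIs with a highest value of 22. At the inner edge of the gate, 58 cells had 1 UMI of each gene. A single Gsc UMI was held by 48 of 389, 176 of 1084, 49 of 120 and 12 of 37 cells, a larger part in both null libraries. A single Hand2 UMI was held by 71, 229, 12 and 2 of them, a smaller part in both null libraries. Per library, the median Gsc count was 6, 4, 2 and 3 UMIs. The part of this in the results by genotype was not tested. Outside it lay 1611 cells with both genes and a barring gene, 478 of them by 1 UMI, and 1089 of the 1611 held Foxf1, a factor of splanchnic mesenchyme. In neural cells, 0.787%, 0.124%, 0.230% and 0.541% had a Gsc UMI and 1.15%, 2.11%, 2.92% and 4.98% a Hand2 UMI, at median depths of 16175, 11254, 16785.5 and 15906 UMIs. Neural cells were those with at least 2 Sox2 UMIs and no UMI of Twist1, Prrx1 or Prrx2. Their summed glial crest markers stood at 1057, 962, 812 and 688 CPM, and whether they lack Gsc and Hand2 was not tested.

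The label of ventral arch mesenchyme was set beside the markers given with it, Hand2os1, Cited1 and Twist2, and beside Twist1. Twist1 was found in 98.2%, 96.9%, 100% and 97.3% of Gsc Hand2 cells, and neural cells were defined by its absence. Hand2os1 was found in 78.1%, 79.2%, 86.7% and 83.8% of Gsc Hand2 cells, in 30.1%, 30.5%, 22.8% and 22.3% of other mesenchymal cells and in 1.26%, 2.11%, 1.61% and 3.73% of neural cells. With each cell thinned to 5000 UMIs, the shares for Hand2os1 were 45.2%, 50.5%, 47.5% and 37.8% in Gsc Hand2 cells and 16.6%, 18.2%, 11.5% and 9.90% in other mesenchymal cells. The 3 markers were higher in Gsc Hand2 cells of every library, which is a description, since they came with the label and were chosen with results of these samples known.

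**Figure D1:**
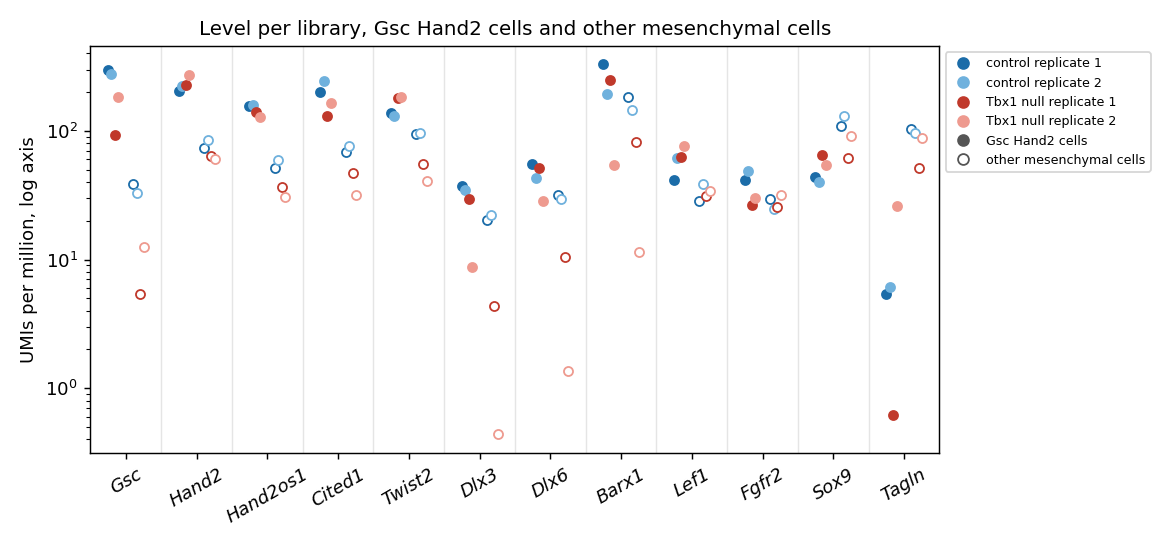
Level of each gene in CPM, on a log axis, in Gsc Hand2 cells (filled) and in other mesenchymal cells (open), with 1 point per library. Cited1 and Hand2os1 of the 4 Gsc Hand2 sums lie above all 4 sums of other mesenchymal cells, and Tagln, a smooth muscle gene, lies below in every library.

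The first comparison asks what else set these cells apart from the rest of the mesenchyme. Gsc Hand2 cells had higher levels of 10 of 20 ventral and intermediate arch genes. Barx1 was among them, and so were Cited1, Hand2os1 and Twist2, which came with the label and are a description. Lower were 12 of 15 smooth muscle and outflow tract genes, 11 of 14 arch position and oral genes, 12 of 16 FGF feedback genes and 10 of 10 neural markers. UMIs were summed per library and cell set, and the sums were compared with edgeR's quasi-likelihood test with the library as a block, calling genes at a Benjamini-Hochberg adjusted p under 0.05. Of 15400 genes tested, 18.5% were called, 1035 (6.72%) higher and 1815 (11.8%) lower, and without control replicate 1 the total was 1512 in place of 2850. Of 14 mesenchymal crest genes 3 were higher, among them the receptor gene Pdgfra, and 9 were lower, among them the filament gene Vim and the cadherin gene Cdh2, with a median log2 fold change of -0.782. The sums cannot tell fewer cells of a type from less RNA per cell.

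Of 20 ventral and intermediate arch genes 10 were higher and 2 lower, with a median log2 fold change of 0.711 beside 0.0082 over all genes. The list was chosen with results of these samples known and is not independent evidence of its direction. The p-values of Cited1, Hand2os1 and Twist2 are no independent evidence either, since these genes came with the label. Cited1, a transcriptional coregulator, stood at 201, 245, 131.5 and 165 CPM against 68.3, 75.9, 46.7 and 31.5, a log2 fold change of 1.74 ± 0.09 (SE, adjusted p = 1.99e-08). Hand2os1 stood at 156, 159, 139 and 129 against 51.3, 58.9, 36.7 and 30.8 (1.73 ± 0.08, adjusted p = 6.09e-09). For both genes the lowest Gsc Hand2 value lay above the highest value of the other cells. Twist2, a helix-loop-helix factor of mesenchyme, stood at 138, 131, 180.2 and 185 against 95.25, 96.3, 55.5 and 41.1 (1.06 ± 0.19, adjusted p = 0.00175). Its gap was wider in both null libraries than in both controls.

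Among the Dlx genes of the ventral list, homeodomain factors whose nested expression patterns the arch from dorsal to ventral, Dlx3, Dlx4 and Dlx6 were higher. Dlx3 stood at 37.55, 34.4, 29.8 and 8.70 CPM against 20.5, 22.4, 4.36 and 0.440, a log2 fold change of 1.22 ± 0.27 (adjusted p = 0.00622). Dlx6 stood at 55.5, 42.8, 51.8 and 28.6 against 31.7, 29.7, 10.5 and 1.35 (1.21 ± 0.28, adjusted p = 0.00826), a call lost with DESeq2. Dlx5 stood at 81.9, 54.4, 115 and 36.0 against 68.2, 59.0, 26.9 and 1.87 and was not called (0.78 ± 0.32, adjusted p = 0.116). For Dlx5 the gap lay mainly in the null libraries, where the other mesenchymal cells were low. For Dlx3 and Dlx6 the gap, as a ratio, was also wider in both null libraries than in both controls. Barx1, a homeodomain factor of arch mesenchyme, stood at 329, 194, 248 and 54.7 against 183, 144, 82.4 and 11.4 (1.03 ± 0.15, adjusted p = 0.000384). Its ratio was likewise wider in both null libraries. Msx1 and Msx2, homeodomain genes that respond to BMP, were called higher with log2 fold changes of 0.45 ± 0.11 and 0.64 ± 0.15, although neither was higher in every library and Msx1 lost its call in cells of 10000 to 30000 UMIs. The 2 lower genes, Gbx2 and Bmper, lay under 5 CPM in every sum.

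Among the largest called rises outside the lists were those of Dlk1, a transmembrane protein related to Notch ligands, Col9a1, a cartilage collagen chain, and Epha3, an ephrin receptor. Dlk1 stood at 424, 315, 668 and 517 CPM against 165, 132.5, 180.4 and 92.4 (1.72 ± 0.13, adjusted p = 8.01e-07). Col9a1 stood at 446, 407, 228 and 401 against 159.6, 148, 89.8 and 128 (1.52 ± 0.04, adjusted p = 3.88e-10). Epha3 stood at 122, 102, 107 and 96.9 against 45.2, 42.3, 44.8 and 38.2 (1.38 ± 0.05, adjusted p = 2.21e-09). For these 3 genes every Gsc Hand2 sum lay above every sum of other mesenchymal cells. The prostaglandin-degrading enzyme gene Hpgd (1.42 ± 0.14), the kinase gene Rps6ka6 (1.34 ± 0.06) and the zinc finger gene Tshz1 (1.28 ± 0.09) were also higher. Ndnf, a secreted factor gene, was higher with 1.20 ± 0.14, but against mesenchymal cells that likewise lacked the barring genes its log2 fold change was 0.051 and the call was lost.

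Of 15 smooth muscle and outflow tract genes none was higher and 12 were lower, with a median of -1.55. Acta2, smooth muscle actin, stood at 3.62, 2.31, 0.310 and 4.97 CPM against 67.3, 42.3, 29.4 and 45.0 (-4.18 ± 0.14, adjusted p = 1.05e-09). Tagln, an actin-binding protein of smooth muscle, stood at 5.43, 6.09, 0.620 and 26.1 against 103, 96.7, 51.2 and 88.6 (-3.91 ± 0.20, adjusted p = 2.92e-08). Gata6, a factor of the outflow tract, and the T-box genes Tbx2 and Tbx3 had log2 fold changes of -2.34 ± 0.19, -1.49 ± 0.23 and -1.62 ± 0.16. The study placed Tbx2 and Tbx3 at this stage mainly in crest of the caudal arches. Since Foxf1 bars cells from one side only, the comparison was repeated against mesenchymal cells that also lacked the barring genes, where Acta2 was at -5.29, Tagln at -4.62, Cited1 at 1.63 and Hand2os1 at 1.45. Twist2 was then at 0.68, Barx1 at 0.58 and Tbx3 at -0.90, with their calls kept. The caudal genes Hoxd4 and Hoxb4 went from -5.76 and -5.37 to -2.89 and -2.41 in the same repeat.

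Of 14 dorsal and proximal arch genes 4 were higher and 7 lower, with a median of -0.354. Pou3f3, a factor of the dorsal arch, stood at 0.905, 2.47, 2.79 and 8.70 CPM against 43.1, 54.9, 25.9 and 36.3 (-4.34 ± 0.22, adjusted p = 2.56e-08), and the values did not overlap. Six2, Eya1, Hey1, Irx5 and Meis2 were among the other lower genes, while Dlx2, Meis1 and the orphan nuclear receptor genes Nr2f1 and Nr2f2 were higher, a call that Dlx2 lost in 7 of 11 alternatives and Nr2f1 against cells without the barring genes. Nr2f2 stood at 172, 188, 106 and 144 against 93.65, 118, 98.2 and 111 (0.63 ± 0.09, adjusted p = 0.000396).

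Counts for the endothelin, FGF and BMP signals stand beside 6.72% higher and 11.8% lower over all genes. Of 9 genes of endothelin signal and its transducers none was higher and 4 were lower. The receptor Ednra stood at 8.60, 10.6, 8.06 and 8.70 CPM against 13.6, 17.7, 7.97 and 10.3 (-0.53 ± 0.13, adjusted p = 0.0101), a call lost with DESeq2 and without either control library. Ednrb, the receptor of pigment and glial crest, had -2.37 ± 0.14 and the transcription factor gene Mef2c, a target of this signal, -1.44 ± 0.15. Against mesenchymal cells without the barring genes these were -1.08 and -0.49. Of 16 FGF feedback genes 1 was higher and 12 were lower, with a median of -1.27. The phosphatase gene Dusp6, induced by FGF signal, stood at 6.90, 8.03, 19.2 and 1.24 against 31.9, 38.7, 34.6 and 17.0 (-1.88 ± 0.19, adjusted p = 1.02e-05). The receptor Fgfr2 was the higher member, at 41.7, 49.2, 26.4 and 29.8 against 29.35, 24.8, 25.7 and 31.9 (0.61 ± 0.13), a call lost with DESeq2. Of 18 BMP genes 1 was higher and 5 lower, with the ligand Bmp4 at -0.79 ± 0.13. Against cells without the barring genes Bmp4 was at -1.19, and the calls of the higher gene Bambi and the lower gene Id3 were lost. The inhibitor of the cell cycle Cdkn1c stood at 204, 233, 109.5 and 289.6 against 531, 478, 556 and 908 (-1.47 ± 0.14), and 6 of 15 G2/M genes were higher, among them Birc5 with 0.23 ± 0.03.

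The gate joins 2 genes, so cells with 1 of them were used as nearer neighbours. Hand2-only cells, which passed every part of the gate but Gsc and were mesenchymal, numbered 261, 720, 184 and 71, with median depths of 20684, 15047.5, 25709 and 22139 UMIs. Gsc-only cells numbered 114 and 251 in the controls, with median depths of 21375 and 15552 UMIs. In the null libraries 19 and 10 Gsc-only cells were too few for a sum of at least 20 cells, so that comparison used the control libraries and had 1 residual degree of freedom. A neighbour can also be a cell in which the other gene was present and not captured.

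Against Hand2-only cells, Gsc Hand2 cells had more Dlx3, Dlx5, Dlx6, Cited1 and Nr2f2 and less Hand1, Dkk1 and Bmp4 and less of 14 of 15 smooth muscle and outflow tract genes. Of 11728 genes, 18.6% were called, 911 (7.77%) higher and 1272 (10.8%) lower. The total of 2183 fell to 979 without control replicate 1, to 981 without control replicate 2 and to 986 with DESeq2. Of 18 ventral and intermediate arch genes 8 were higher and 4 lower, with a median of 0.0756 beside 0.0253 over all genes. Pcdh10, a protocadherin, stood at 38.7, 46.7, 11.8 and 21.1 CPM against 2.475, 5.20, 3.97 and 7.96 (3.04 ± 0.20, adjusted p = 2.49e-09). Cited1 was at 59.9, 66.9, 67.9 and 69.2 in Hand2-only cells (1.62 ± 0.10), and Nr2f2 at 49.0, 63.15, 66.2 and 60.6 (1.46 ± 0.11). Each of these 3 genes was higher in Gsc Hand2 cells of all 4 libraries. For Cited1, which came with the label, this is a description. Dlx3, Dlx6 and Dlx5 had log2 fold changes of 1.33 ± 0.16, 1.01 ± 0.10 and 0.71 ± 0.12. Barx1 had 0.94 ± 0.16, and the calls of Barx1 and Dlx5 were lost with DESeq2.

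Hand1, the close relative of Hand2 in the most ventral arch and outflow tract, stood at 15.2, 19.8, 14.6 and 62.1 CPM against 97.4, 114.5, 43.45 and 108 (-2.26 ± 0.16, adjusted p = 4.71e-09). Dkk1, a secreted Wnt inhibitor, stood at 21.15, 19.8, 21.4 and 23.6 against 92.8, 94.1, 89.2 and 134 (-2.15 ± 0.07, adjusted p = 1.37e-13). Every Dkk1 sum of Hand2-only cells lay above every sum of Gsc Hand2 cells. Of 17 BMP genes 1 was higher and 15 lower, with a median of -0.917, and Bmp4 was at -2.06 ± 0.13. Of 15 smooth muscle and outflow tract genes none was higher and 14 were lower. Acta2 stood at 462, 198, 106.5 and 618 in Hand2-only cells (-6.70 ± 0.10) and Gata6 at 60.3, 49.5, 24.9 and 93.0 (-4.56 ± 0.14). Hand2os1 did not differ by enough to be called (-0.06 ± 0.06, adjusted p = 0.546). All 15 G2/M genes tested were higher with a median of 0.32, and Top2a, a DNA topoisomerase of dividing cells, had 0.37 ± 0.05. Against Gsc-only cells of the controls, 10 of 15 G2/M genes were higher and none lower. Gsc Hand2 cells had higher median depths than the cells of either set in each library compared, and the part of depth was not tested.

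Against Gsc-only cells of the control libraries, Gsc Hand2 cells had more Hand2os1, Hand1, Msx2 and Zfp503 and more of several BMP-responsive genes, and less of Dlx3, Dlx4 and Dlx5. Of 11310 genes, 6.01% were called, 349 (3.09%) higher and 331 (2.93%) lower, and DESeq2 called 95. With 1 residual degree of freedom, these p-values rest on a spread that edgeR shares over all genes. Of 17 ventral and intermediate arch genes 7 were higher and 6 lower, with a median of 0.114 beside 0.0021 over all genes, so the list moved both ways. Hand2os1 stood at 156 and 159 CPM against 16.6 and 32.9 (2.56 ± 0.09). This is a description, since Hand2os1 came with the label and Hand2 chose both cell sets. The zinc finger gene Zfp503 stood at 109 and 147 against 25.1 and 42.7 (1.87 ± 0.09), and Msx2 at 45.5 and 42.2 against 10.95 and 13.8 (1.76 ± 0.15). Id1, a direct BMP target, stood at 367 and 334.5 against 135 and 138 (1.33 ± 0.05). Of 14 BMP genes 9 were higher and 1 lower, with a median of 0.992. Of 11 smooth muscle and outflow tract genes 6 were higher (Rgs5, Gata3, Sema3c, Tbx3, Tbx2 and Isl1) and none lower, with a median of 1.04, the opposite direction to the comparison with Hand2-only cells.

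In the other direction, Dlx5 stood at 81.9 and 54.4 CPM against 137.5 and 104.5 in Gsc-only cells (-0.87 ± 0.07, adjusted p = 7.37e-29). Dlx6os1, a noncoding gene of the Dlx5 and Dlx6 locus, stood at 34.7 and 33.6 against 79.9 and 88.9 (-1.34 ± 0.09), and Barx1 at 329 and 194 against 487 and 364 (-0.76 ± 0.04). Both libraries had these genes lower in Gsc Hand2 cells. Pou3f3 stood at 0.905 and 2.47 against 16.6 and 11.8 (-2.84 ± 0.27). Cited1 differed by 0.34 ± 0.05 and Nr2f2 by -0.06 ± 0.05, of which the first was called and lost its call with DESeq2. Dlx3, Dlx5 and Barx1 therefore stood above Hand2-only cells and below Gsc-only cells, in comparisons that share the same Gsc Hand2 cells.

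**Figure D2:**
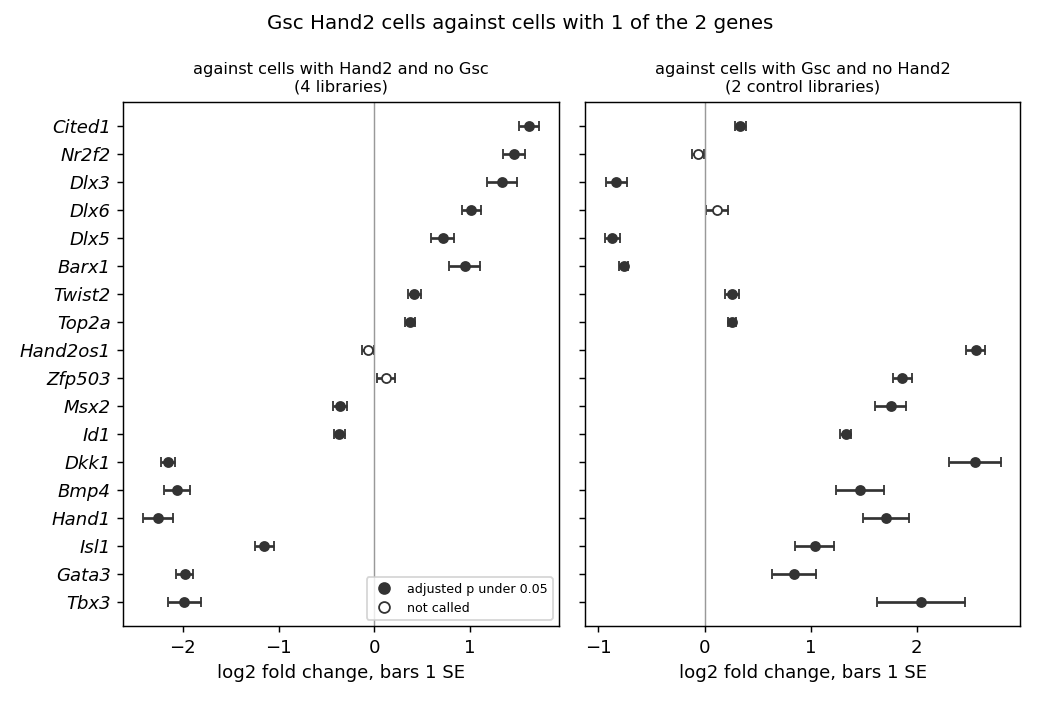
Log2 fold change of Gsc Hand2 cells against Hand2-only cells and against Gsc-only cells for named arch genes, with standard errors from edgeR. Cited1 and the Dlx genes lie to the positive side against Hand2-only cells, and Hand2os1, Msx2 and Zfp503 against Gsc-only cells.

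Hoxa2 was not part of the gate and split the Gsc Hand2 cells. It was found in 49.1%, 42.5%, 78.3% and 56.8% of them, and in 21.2%, 18.9%, 35.8% and 40.5% after thinning to 5000 UMIs. Both null libraries were above both controls, with p = 0.333 in the exact two-sided permutation test, the smallest that 2 against 2 libraries allow. Cells with a Hoxa2 UMI numbered 191, 461 and 94 in the 3 libraries that could be summed, against 198, 623 and 26 without one, and Tbx1 null replicate 2, with 21 and 16, was left out. Cells with Hoxa2 were deeper, with medians of 24902, 19138 and 26923 UMIs against 18898, 14469 and 18311, and the part of depth was not tested. Neural cells could not serve as background for Hoxa2, since 52.4% to 72.7% of them held it.

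Of 10917 genes, 4.86% were called between Gsc Hand2 cells with and without Hoxa2, 220 (2.02%) higher and 311 (2.85%) lower. The total of 531 went to 326 without control replicate 1, to 111 without control replicate 2 and to 94 with DESeq2. Barx1 stood at 433, 281 and 285 CPM with Hoxa2 against 201, 107 and 71.2 without (1.32 ± 0.06, adjusted p = 2.37e-20). Dlx6os1 stood at 44.7, 49.0 and 37.9 against 22.45, 18.4 and 21.4 (1.26 ± 0.11), and Dlx3 at 45.5, 43.7 and 33.8 against 27.75, 25.2 and 10.7 (0.82 ± 0.11). Dlx5 had 0.61 ± 0.08 and the cartilage factor Sox9 0.77 ± 0.11, and each was higher with Hoxa2 in all 3 libraries. Of 15 G2/M genes 8 were higher.

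Genes lower in the cells with Hoxa2 included Gata3, a zinc finger factor, at 5.13, 7.16 and 4.88 CPM against 21.2, 22.4 and 26.7 (-1.81 ± 0.16, adjusted p = 1.82e-11). Isl1, a LIM homeodomain factor of the outflow tract and ventral arch, stood at 10.05, 9.16 and 1.50 against 31.3, 32.2 and 12.5 (-1.77 ± 0.14), and Hand1 at 11.3, 9.27 and 9.76 against 19.9, 30.2 and 37.4 (-1.46 ± 0.15). Every library had these 3 genes lower in the cells with Hoxa2. Hand2os1 (-0.41 ± 0.06), Msx2 (-0.65 ± 0.09), Dkk1 (-1.30 ± 0.13) and Zfp503 (-0.57 ± 0.06) were lower too. Of 17 ventral and intermediate arch genes 5 were higher and 5 lower, and of 13 BMP genes 1 was higher and 5 lower. Gsc was at 261, 242 and 86.4 with Hoxa2 and 336, 309 and 126 without, a description since Gsc chose the cells.

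**Figure D3:**
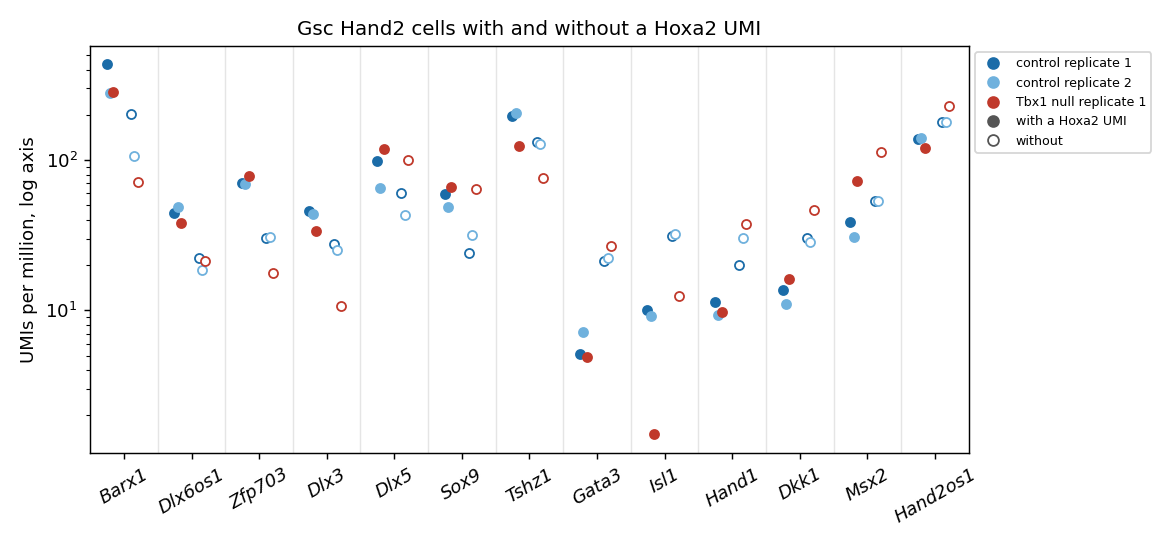
Levels in CPM, on a log axis, of named genes in Gsc Hand2 cells with and without a Hoxa2 UMI in the 3 libraries summed. Barx1 and Dlx6os1 are higher with Hoxa2, and Gata3, Isl1 and Hand1 are lower, in each library.

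The Gsc Hand2 share of mesenchymal cells was compared by genotype, over the 384, 1066, 120 and 36 cells that met the mesenchymal minimum. It was 10.2% (95% Clopper-Pearson interval 9.26 to 11.2) and 14.0% (13.2 to 14.8) in the controls and 3.30% (2.74 to 3.93) and 1.44% (1.01 to 1.99) in the null libraries. Both null libraries lay below both controls, with a ratio of means of 0.196 and p = 0.333 in the exact two-sided permutation test, the smallest possible. The ratio was 0.119 without Tbx1 null replicate 1 and also 0.119 with all kept cells as the denominator. The intervals cover counting error only. Mesenchymal cells numbered 3760 of 7351, 7628 of 10259, 3639 of 8820 and 2500 of 6939 kept cells, and the dissection is labelled in other words for each genotype, so that any difference in dissection and the genotype cannot be told apart. The study also lists fewer somites for Tbx1 null replicate 1 than for both controls, and fewer embryos in each null pool. The part of these in the shares was not tested. The barring genes took out 433 of 822, 745 of 1829, 207 of 327 and 226 of 263 kept cells that had both Gsc and Hand2. Among mesenchymal cells without the barring genes, a denominator chosen after seeing the data, the shares were 31.5%, 34.0%, 13.2% and 12.4% and the ratio was 0.389.

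In that denominator the 2 genes of the gate differed in share. Gsc was found in 40.9%, 42.1%, 15.2% and 15.8% of cells, and Hand2 in 52.9%, 57.0%, 33.3% and 36.8%. Of cells with Hand2, 59.5%, 59.7%, 39.5% and 33.6% also had Gsc. Of cells with Gsc, 77.1%, 80.9%, 86.3% and 78.3% also had Hand2. The share with Gsc among Hand2 cells was thus lower in both null libraries, and the share with Hand2 among Gsc cells overlapped between genotypes. These genes chose the cells, so no test is given.

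**Figure D4:**
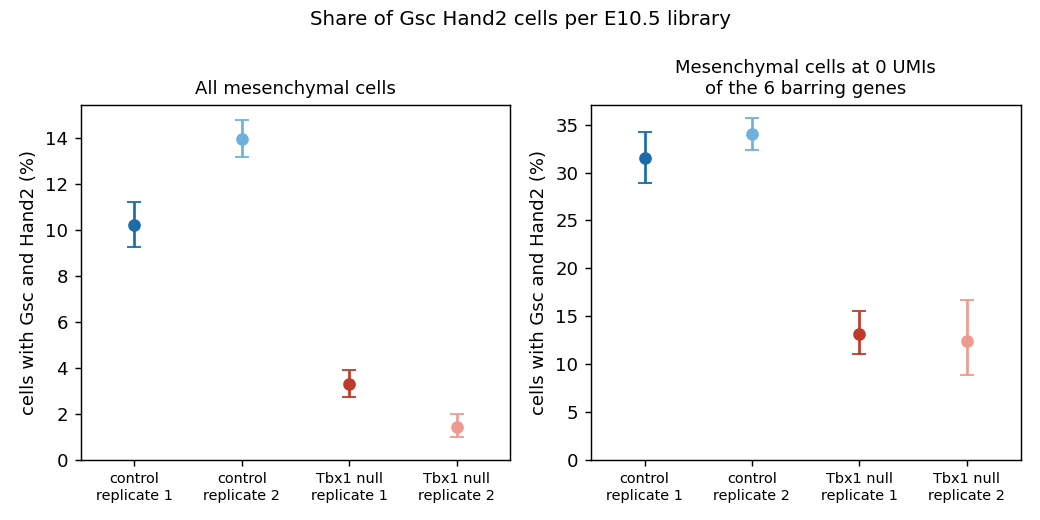
Share of Gsc Hand2 cells among mesenchymal cells in percent on the left and among those without the barring genes on the right, with 1 point per library and 95% Clopper-Pearson intervals. On the left, control libraries stand at 10.2% and 14.0% and Tbx1 null libraries at 3.30% and 1.44%.

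The number of genes called by genotype within Gsc Hand2 cells depended on the settings. Of 11189 genes, 0.0804% were called, 3 (0.0268%) higher and 6 (0.0536%) lower in the null libraries, while 1461 had an unadjusted p under 0.05 and DESeq2 called 30, of which 19 were higher and 11 lower. Leaving out a library gave 84 calls without control replicate 1, 31 without control replicate 2, 12 without Tbx1 null replicate 1 and 113 without Tbx1 null replicate 2. It was 235 with no filter on low counts and 17 in cells of 10000 to 30000 UMIs. In other mesenchymal cells, 0.0246% of 16254 genes were called, 0 (0%) higher and 4 (0.0246%) lower, while 2234 had an unadjusted p under 0.05 and DESeq2 called 542, of which 335 were higher and 207 lower. The split there was 781 higher and 463 lower with no filter on low counts and 427 and 121 without Tbx1 null replicate 1, so the direction of these calls depended on the settings. Tbx2, a T-box repressor, stood at 10.1 and 7.29 CPM in control Gsc Hand2 cells and 46.8 and 36.0 in null ones (2.24 ± 0.28, adjusted p = 0.0144). In other mesenchymal cells Tbx2 stood at 46.8 and 33.6 against 68.0 and 48.7 and was not called. Without Tbx1 null replicate 1 the Tbx2 call was lost (adjusted p = 0.135, the highest of 12 alternatives), at a log2 fold change of 1.95. Gpx3, a secreted glutathione peroxidase, stood at 7.80 and 7.66 against 30.1 and 42.25 (2.09 ± 0.27, adjusted p = 0.0165), and Wfikkn1, a binding protein of growth factors of the TGF-beta family, at 1.58 and 2.05 against 28.2 and 6.21 (3.40 ± 0.48, adjusted p = 0.026). Wfikkn1 lay outside the rule for named genes, so its call was not followed over the alternatives, and its 2 null libraries lay far apart.

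Of the 6 lower genes, Gm42418, AY036118 and Lars2 are loci that collect reads of ribosomal RNA. Gm42418 stood at 2969 and 4858 CPM in control and 179 and 469.8 in null Gsc Hand2 cells (-3.70 ± 0.43, adjusted p = 0.011). In other mesenchymal cells of the same libraries it stood at 2717 and 4785 against 178 and 511, so the gap followed the libraries in both cell sets, and its part in the other results was not tested. AY036118 stood at 156 and 105 against 6.20 and 13.7 and Lars2 at 107 and 183 against 18.6 and 13.7 in Gsc Hand2 cells. The noncoding gene 3110099E03Rik had 615 UMIs in control and 2 in null Gsc Hand2 cells, a ratio of CPM of 44.4 (95% interval 12.2 to 368, over UMIs pooled by genotype and for counting error only), and its call was lost with DESeq2, without Tbx1 null replicate 1 and with a gate of 2 UMIs of each gene. The other 2 genes lay outside the rule for named genes and are given because the list is short. 2410018L13Rik had 282 and 2 UMIs, and Nr5a2, an orphan nuclear receptor gene, had 349 and 0 UMIs, at least 16.8-fold lower against a floor of 3 UMIs over the null group.

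Of 17 ventral and intermediate arch genes tested none was called by genotype within Gsc Hand2 cells, where 0.0804% of all genes were, so this count says nothing particular to the list, which had a median of -0.263 beside -0.00534 over all genes. Msx1 stood at 119 and 131 CPM against 394 and 258.5 (1.32 ± 0.26, adjusted p = 0.117), and Hoxa2 at 52.4 and 51.3 against 112 and 80.8 (0.85 ± 0.24, adjusted p = 0.237). Neither gene overlapped between genotypes. The same held for 2958 genes higher and 1926 genes lower in the null libraries, of 11189 tested. The lack of overlap is therefore not particular to Msx1 and Hoxa2. Cited1 had -0.68 ± 0.23 and Hand2os1 -0.30 ± 0.22. Gsc and Hand2 were not tested.

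The genotype difference itself was compared between the cell sets with an interaction term, which left 2 residual degrees of freedom. Of 15408 genes, 2.8% were called, 195 (1.27%) with a higher and 236 (1.53%) with a lower difference in Gsc Hand2 cells, and DESeq2 called 76. The total of 431 went to 206 without control replicate 1 and to 76 without control replicate 2, and the p-values rest on a spread shared over genes. Against other mesenchymal cells without the barring genes, an alternative added after seeing the data, 137 genes were called, 73 higher and 64 lower, with Dlx5 at 1.70, Twist2 at 0.77 and Barx1 at 0.54, each still called. The split moved to 253 higher and 168 lower with DESeq2 size factors and to 224 and 123 without a filter on low counts. Of 20 ventral and intermediate arch genes 11 were higher and 1 lower, with a median of 0.686 beside -0.0654 over all genes. The gate asks for Gsc and Hand2 in Gsc Hand2 cells of both genotypes, while the other cells had no such bound. The part of this bound in these differences was not tested.

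No Dlx gene was called by genotype within either cell set, but the difference between the sets was called for several. Dlx5 stood at 81.9 and 54.4 CPM in control and 115 and 36.0 in null Gsc Hand2 cells, and at 68.2 and 59.0 in control and 26.9 and 1.87 in null other mesenchymal cells (2.15 ± 0.12, adjusted p = 7.93e-66). Between the null libraries Dlx5 went from 115 to 36.0 in Gsc Hand2 cells and from 26.9 to 1.87 in the others. Its p-value does not measure that spread, since it rests on a spread shared over genes. Dlx6 had 1.82 ± 0.16, Dlx6os1 2.80 ± 0.20 and Dlx3 2.10 ± 0.21, and the calls of Dlx5, Dlx6 and Dlx6os1 were lost with DESeq2. Twist2 stood at 138 and 131 in control and 180.2 and 185 in null Gsc Hand2 cells, and at 95.25 and 96.3 in control and 55.5 and 41.1 in null other mesenchymal cells (1.30 ± 0.09, adjusted p = 3.22e-45). Twist2 was thus above the controls in null Gsc Hand2 cells and below them in the other null cells. Cited1 was not called (0.07 ± 0.09, adjusted p = 0.971).

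**Figure D5:**
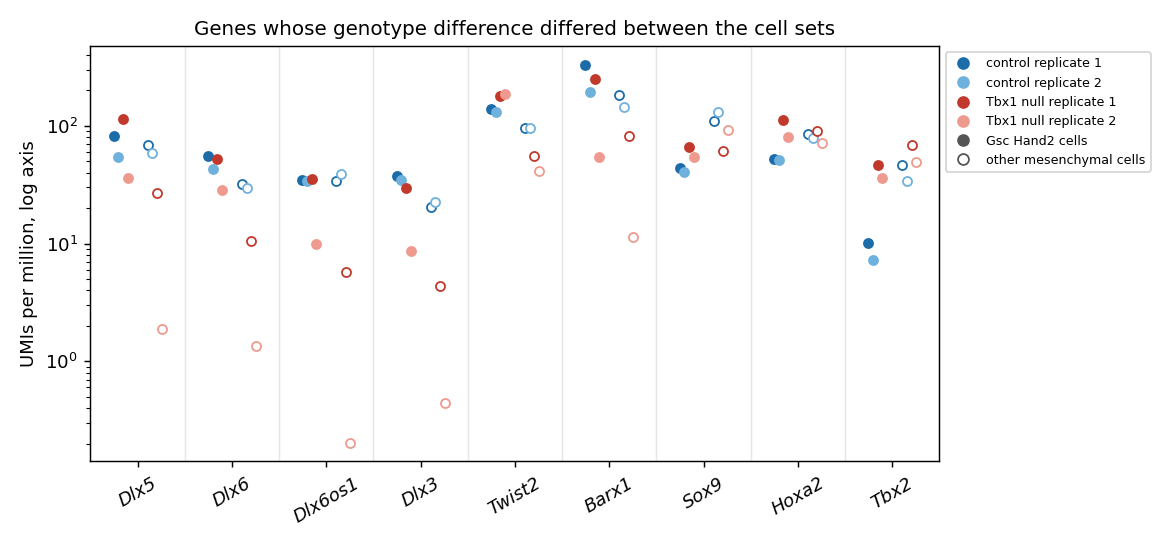
CPM, on a log axis, in control and Tbx1 null libraries, for Gsc Hand2 cells (filled) and other mesenchymal cells (open), for genes with a called interaction. Null points of Twist2 lie above the control points in Gsc Hand2 cells and below them in other mesenchymal cells, and Tbx2 of Gsc Hand2 cells stands at 10.1 and 7.29 in the controls and at 46.8 and 36.0 in the null libraries.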

How the data were processed

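Single-cell RNA-seq libraries of sorted neural crest cells were analysed from 10x filtered matrices. The deposited counts are UMIs per gene and barcode, whole numbers that the authors made with Cell Ranger 6.0.1 against mm10, with 32285 gene identifiers and no normalization. Samples were grouped by title. Barcodes needed 1000 or more genes and no more than 10% of UMIs from mitochondrial genes. Barcodes were ranked by the doublet score of Scrublet in scanpy 1.11.5. The highest in each library, a set 0.8% for every 1000 barcodes, were removed as an alternative. Counts were summed per library and cell set, in sums of at least 20 cells, and tested with edgeR 4.0.16 (TMM, filterByExpr, quasi-likelihood, Benjamini-Hochberg at 0.05), with DESeq2 1.42.0 as an alternative. Levels are CPM of a sum without TMM scaling, and error terms are standard errors. Shares carry 95% Clopper-Pearson intervals, which cover counting error only. Named genes are those of 23 lists and up to 15 called genes per direction with at least 20 CPM and 1 direction in every library. The members and lists were chosen with earlier results of these data known. Replicates are described as biological replicates of pooled embryos without naming separate litters. The p-values rest on the spread between these libraries, which edgeR shares over genes. A p-value can therefore be small for a gene whose own libraries differ widely. Other alternatives were DESeq2 size factors, no filter on low counts, each library left out, doublets removed, cells of 10000 to 30000 UMIs, a gate of 2 UMIs, comparison cells without the barring genes, the replicate block and the thresholds of the study. The tests were tried on simulated data. Libraries of earlier stages were used for counts of cells only.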

Additional observations from a re-analysis of the deposited data

Results flagged for a closer look

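By the interaction term in edgeR, the genotype difference of 431 of 15408 genes (2.8%) differed between Gsc Hand2 cells and other mesenchymal cells. DESeq2 called 76. The 84 named genes followed here were taken from the edgeR calls, so their number is not a result. Of these 84 calls, 14 held in every alternative fitted for the interaction, which left out the replicate block and the thresholds of the study. Aldh1a2 and the 17 genes given here held in each of these other than DESeq2. The gate asks for Gsc and Hand2 in both genotypes, and its part in these differences was not tested. The difference was higher in Gsc Hand2 cells, on the log2 scale, for Dlx6os1 by 2.80, Ramp2, a receptor activity modifier, by 2.27, Dlx5 by 2.15, Dlx3 by 2.10 and Dlx6 by 1.82. It was also higher for Pantr1 by 1.66, Tbx2 by 1.65, Tril by 1.60, Sox9 by 1.39, Twist2 by 1.30, Gm266 by 1.29, Barx1 by 0.99 and Hoxa2 by 0.91. It was lower, with log2 values of -1.84 for the membrane linker gene Ezr, -1.80 for the microtubule gene Map1b, -1.78 for the cadherin gene Cdh2 and -0.90 for Cdkn1c. Sox9 stood at 43.7 and 40.1 CPM in control and 65.4 and 54.7 in null Gsc Hand2 cells. In other mesenchymal cells Sox9 stood at 109.8 and 131 in control and 61.2 and 91.9 in null libraries, the opposite order. Aldh1a2, the enzyme gene of retinoic acid synthesis, had 183 UMIs in control and 0 in null Gsc Hand2 cells, at least 8.81-fold lower against a floor of 3 UMIs over the null group, and was not called within these cells (adjusted p = 0.0568).

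Outside the comparisons, the gate also found cells at day 9.5, where each genotype has 1 library and no test is possible. It took 54 of 5960 mesenchymal cells in the control (0.906%, 95% interval 0.681 to 1.18) and 89 of 8063 in the Tbx1 null library (1.10%, 0.887 to 1.36), so the intervals overlap. At day 8.5 it took 0 of 3000 mesenchymal cells, which allows a share of up to 0.1% by a limit of 3 counts and has a 95% interval up to 0.123%.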

How the results depend on the processing

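Of 4848 pairs of a named call and an alternative, 4098 kept the call, 734 lost it in the same direction and 16 changed direction, and the cause was not tested. Against other mesenchymal cells, leaving out 1 library gave 1512 to 2730 calls, with 1512 without control replicate 1. By genotype within Gsc Hand2 cells, DESeq2 called 30 genes, no filter on low counts 235, cells of 10000 to 30000 UMIs 17, and leaving out 1 library 12 to 113. In other mesenchymal cells these were 542, 1244, 15 and 28 to 548, with 8 for cells without the barring genes and 2 with the thresholds of the study. The interaction gave 76 calls with DESeq2, 137 against cells without the barring genes, 281 with a gate of 2 UMIs and 76 to 321 without 1 library. Against Hand2-only cells DESeq2 called 986 and leaving out 1 library gave 979 to 2212. Against Gsc-only cells DESeq2 called 95, and no library could be left out. For the Hoxa2 split DESeq2 called 94 and leaving out 1 library gave 111 to 770. The ratio of shares ran from 0.119 to 0.273, and was 0.389 among mesenchymal cells without the barring genes, an alternative added after seeing the data.

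With the replicate number as a block, 87 genes were called within Gsc Hand2 cells and 57 in other mesenchymal cells, but same-numbered libraries correlated with r = 0.172 and 0.0557 over genes, and with 2 pairs they share only a number.

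Against cells without the barring genes, the log2 fold change changed sign for Mecom (-0.019), Crabp2 (0.051), Cxcl12 (0.081), Rara (0.036) and Snai2 (-0.011). The interaction changed sign for Mycn with DESeq2 (-0.12), for Foxd1 against cells without the barring genes (-0.31) and for Tbx3 with a gate of 2 UMIs (-0.14). For Msx1 it ran from -0.031 without control replicate 1 to 0.69 without control replicate 2. Without Tbx1 null replicate 1 it changed sign for 7 genes, which ran to the other side without Tbx1 null replicate 2, namely Myl9 (0.41 and -1.76), Sfrp1 (0.29 and -0.81), Dusp6 (-1.47 and 1.41), Mycn (-1.10 and 0.69), Id2 (0.074 and -0.41), Foxd1 (-0.33 and 1.19) and Myc (-0.61 and 1.59).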

Other observations

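Of 14 Wnt genes, 3 were higher and 6 lower in Gsc Hand2 cells than in other mesenchymal cells, with a median log2 fold change of -0.347. The transcription factor gene Lef1, which acts in Wnt signal, stood at 41.2, 61.1, 62.95 and 75.8 CPM against 28.55, 38.7, 30.9 and 34.05 (0.82 ± 0.09, adjusted p = 1.67e-05), higher in every library and at 0.54 against cells without the barring genes. Over all genes 6.72% were higher and 11.8% lower. Of 10 Hedgehog genes 2 were higher and 2 lower, and of 12 retinoic acid genes 1 was higher and 6 were lower. Of 11 skeletogenic genes 2 were higher and 5 lower. Sox9 stood at 43.7, 40.1, 65.4 and 54.7 against 109.8, 131, 61.2 and 91.9 (-1.06 ± 0.20, adjusted p = 0.00213), lower in 3 of 4 libraries.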
